A study of Mus musculus with 2 samples.

Results

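The insulin-like growth factor (IGF) family was followed here through its 2 ligands, *Igf1* and *Igf2*, its 2 receptors, *Igf1r* and *Igf2r*, and its binding proteins *Igfbp2* to *Igfbp7*. These 10 genes were taken by symbol, and all were found among the 31053 genes listed for the E15.5 library and the 27998 listed for the E17.5 library. IGF ligands are secreted growth factors that signal through the type 1 receptor, a tyrosine kinase. The type 2 receptor, which also carries mannose 6-phosphate-tagged enzymes to lysosomes, takes up *Igf2* protein and clears it. Binding proteins hold the ligands outside the cell, and depending on the protein and its cleavage by proteases they limit or prolong ligand access to the receptor. In the skull, IGF signaling is known as a growth signal for cells that form bone.

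Cells came from the coronal suture, the fibrous joint between the frontal and parietal bones, of wild-type C57/BL6 mouse embryos, and were profiled with the 10x Genomics Chromium 3′ system, which counts each captured RNA molecule once by its unique molecular identifier (UMI). For E15.5, 10 sutures were pooled into 1 library and dissociated with Collagenase II and Dispase and freed of dead cells with a kit. The E17.5 library joined 3 batches from 2 litters, with 10 sutures of litter 1 in the first batch and 3 sutures of litter 2 in each of the others, digested with Collagenase IV and sorted by FACS. No mutant or treated embryo entered the libraries, and the sex of the pooled embryos is not given in the labels. Stage, dissection, enzyme, sort, sequencing site, read depth and gene list changed together with the library, and their effects cannot be told apart. E17.5 barcodes end in 1 of 3 suffixes, which the sources used here do not assign to batches. Each stage is 1 deposited sample, the suffixes cannot be tied to batches, and the clusters were defined on these cells. No test between stages or clusters was therefore run; suffix values are given beside the results they touch, and each interval below is an exact Poisson interval at 95% that covers counting error only.

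The deposited table places 5335 cells of the E15.5 matrix and 6830 of the E17.5 matrix in 15 clusters of osteogenic (OG1 to OG4, and proliferating PO1 and PO2), ectocranial (EC1 to EC4, and the ligament-like LIG) and meningeal (MG1 to MG4) cells. Labelled cells of the earlier and the later library held 48607817 and 92585034 UMIs, with medians of 8510 and 12301.5 UMIs per cell. The clusters were read with 29 pairs of a marker and a cluster. These markers are genes that the paper reports for the clusters from the same cells, so the pairs are no independent check. Markers exceeded the remaining labelled cells in both libraries in 28 pairs, at least 2-fold in 24. The exception was *Pi16* in EC3 at E15.5, with a ratio of 0.782. MG1 had only 28 cells at E15.5 and none in suffix 1 at E17.5, and MG4 had 64 cells at E15.5 and 7 in suffix 1. The libraries shared 42 labelled barcodes, and pairs of E17.5 suffixes shared between 5 and 13. Levels are given as CPM, the UMIs of a gene in a cluster per 1000000 UMIs of that cluster. Because the labels were made from these same cells, the levels describe the clusters and are no test of them, and because RNA was counted from the 3′ end, levels were compared between clusters and not between genes.

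Of the 6 binding proteins 5 were enriched in a cluster in both libraries, whereas neither the ligands nor the receptors were. A gene was called enriched when its CPM in a cluster was at least 2 times that of the other labelled cells in both libraries. Of the 10 members 5 were enriched: *Igfbp2* in MG1, MG3 and MG4, *Igfbp3* in EC4 and LIG, *Igfbp5* in EC4 and MG2, *Igfbp6* in EC2, and *Igfbp7* in EC4. Among all 12150 genes with at least 50 UMIs in each library, 20.7% were enriched by the same rule. Just outside the limit were *Igf1* in EC4, with ratios of 1.95 and 2.20, and *Igfbp4* in EC4, with 1.73 and 2.6. Just inside it were *Igfbp5* in MG2, with 2.04 and 2.00, and *Igfbp5* in EC4, with 2.20 and 4.74. The osteogenic clusters showed the opposite pattern: 5 members, *Igf1*, *Igfbp3*, *Igfbp4*, *Igfbp5* and *Igfbp6*, were at least 2-fold lower in the pooled osteogenic clusters than in the other labelled cells in both libraries, against 6.3% of all genes tested. OG1 by itself did not follow for *Igf1*, at 1.07 and 0.879 times the other labelled cells, or for *Igfbp4*, at 0.683 and 0.953 times. Across the clusters, the pattern of each member on a log2(CPM + 1) scale resembled itself between the libraries with Pearson's r from 0.65 for *Igf1r* to 0.90 for *Igfbp4*, a description over 15 clusters that share their library and their labels.

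**Figure D1:**
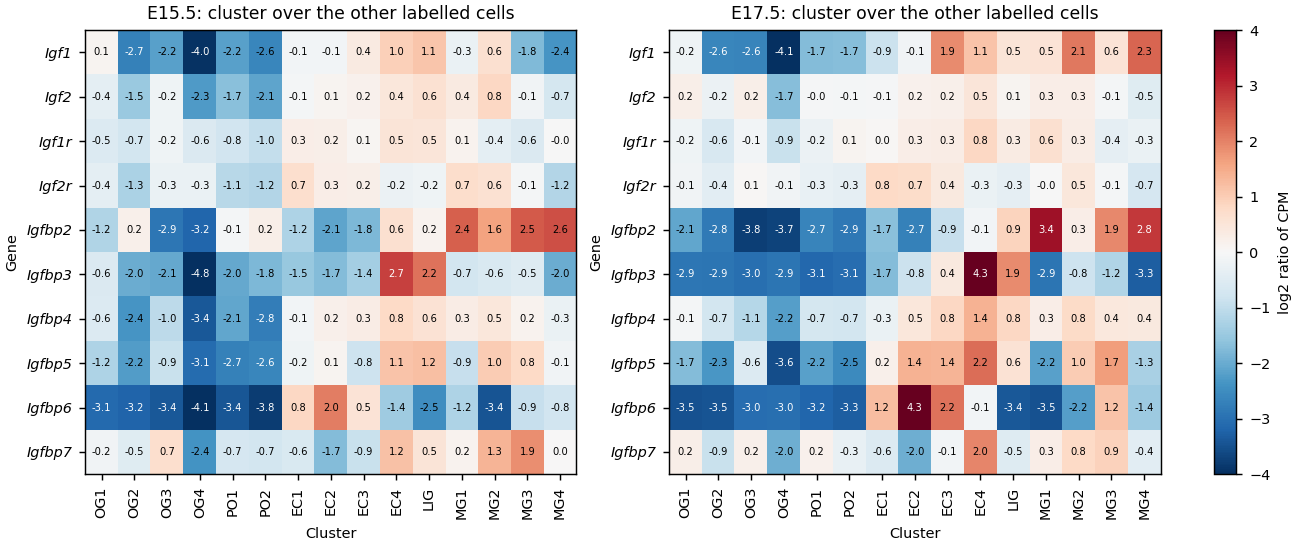
Log2 ratio of the CPM of each member (vertical axis) in each cluster (horizontal axis) to the other labelled cells, for the E15.5 and E17.5 libraries; red is above and blue is below the other cells. *Igfbp2* is highest in MG1, MG3 and MG4, *Igfbp3* in EC4 and LIG and *Igfbp6* in EC2. OG4 is below 0 for all 10 members in both libraries, and the *Igf1r* and *Igf2r* rows vary least.

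*Igf1*, the ligand that acts through the type 1 receptor, was highest in ectocranial cells in the earlier library and in meningeal cells in the later one. In LIG it reached 898 CPM (869 to 928) at E15.5, with 828 in EC4, 687 in MG2, 552 in EC3 and 490 in OG1, each apart from the next. EC2, EC1 and MG1 followed at 429, 425 and 386 CPM and did not differ beyond their intervals. It was 30.4 CPM (22.9 to 39.6) in OG4, the cluster marked by the mature osteoblast genes *Ifitm5* and *Dmp1*. Within the bone-forming cells *Igf1* was thus high in OG1 and low in each other cluster, with 75.3 CPM in OG2, 105 in OG3, 106 in PO1 and 76.4 in PO2.

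At E17.5 *Igf1* was highest in MG4, at 579 CPM (545 to 614), followed by 460 in MG2 and 438 in EC3. The 3 do not stand apart once the barcode suffixes are counted, as MG2 alone ranged from 338 to 740 CPM over suffixes 1 to 3. EC4 had 261 CPM, MG3 183, MG1 177 and LIG 171. OG1 had 112 CPM, and OG4 was again lowest with 8.10 CPM (6.47 to 10.0). Cells with macrophage markers outside the labelled subset had 108 CPM of *Igf1* in the earlier library and 148 in the later one. Of these cells 41.8% and 64.9% held an *Igf1* UMI. A cluster was called above these cells in CPM only when its interval lay wholly above theirs. In the earlier library 6 of the 15 clusters were not above them, MG4 and the osteogenic clusters other than OG1. In the later one 8 were not, the osteogenic clusters with OG1 included, EC1 and EC2.

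The share of cells with an *Igf1* UMI also fell from EC4 to OG1 to OG4, although over all clusters its order was not that of the CPM. After each cell was thinned to 3000 UMIs, 83.0% of EC4 cells had 1 or more at E15.5, 50.3% of OG1 and 6.29% of OG4 (95.3%, 60.2% and 13.2% before thinning). At E17.5 the thinned shares were 49.2%, 25.9% and 2.21% (79.7%, 53.9% and 14.6%). OG1 was uneven: at E15.5 the 10% of its 261 cells with most *Igf1* held 47.9% of its *Igf1* UMIs, with a median of 1 UMI per cell, against 25.7% in EC4, with a median of 6.

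*Igf1* in the arachnoid-marked cluster MG4 went from 90.3 CPM (68.9 to 116; 60 UMIs in 64 cells) at E15.5 to 579 CPM at E17.5, where suffixes 2 and 3 gave values between 560 and 596. At the earlier stage it was not above the macrophage-marker cells, in CPM or in the thinned share, where those cells had 22.4%. Thinned shares were compared with theirs by value alone, without intervals. In the later library its pooled level was the highest, but it was not apart from MG2 and EC3, which had 740 and 697 CPM in suffix 1. MG3 had 140 CPM and then 183 CPM, with intervals apart but with suffixes from 122 to 249. In the remaining 13 clusters the pooled *Igf1* level was lower at E17.5, with ratios from 0.165 in EC1 to 0.793 in EC3. Suffix 1 by itself was above E15.5 in EC3, at 697 against 552 CPM, and in MG2, at 740 against 687.

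*Igf2*, a fetal growth factor expressed from the paternal allele, was broadly high at E17.5. Its levels ran from 651 CPM (635 to 666) in OG4 to 2672 CPM (2624 to 2720) in EC4, and 13 of the clusters lay from 1403 to 2332. In OG1 and OG3 it was 2236 and 2230 CPM, beside 2258 in EC3, 2307 in MG1 and 2332 in MG2. EC4 stood apart from the next cluster at the top, and OG2, MG4 and OG4 stood apart from their neighbours at the bottom. After thinning, 99.7% of EC4 cells and 76.3% of OG4 cells had an *Igf2* UMI (100% and 98.3% before thinning), and the median cell held 29.0 and 10.0 UMIs. The suffixes differed little, with a median ratio of 0.992 between suffix 1 and the others over 12 clusters.

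At E15.5 *Igf2* had only 2155 UMIs in labelled cells, and the 2 libraries cannot be compared for it. The E15.5 gene list holds *Gm49394*, which the E17.5 list does not, and whose exons on the same strand share 3596 bases, 62.8% of the exonic bases of *Igf2*. *Gm49394* itself had 0 UMIs in that library. Within E15.5, *Igf2* ranged from 9.39 CPM (5.47 to 15) in OG4 to 75.8 CPM (66.2 to 86.4) in MG2, and no cluster was apart from its neighbour in the order. OG4 was thus lowest for *Igf2* in each library, as for *Igf1*.

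**Figure D2:**
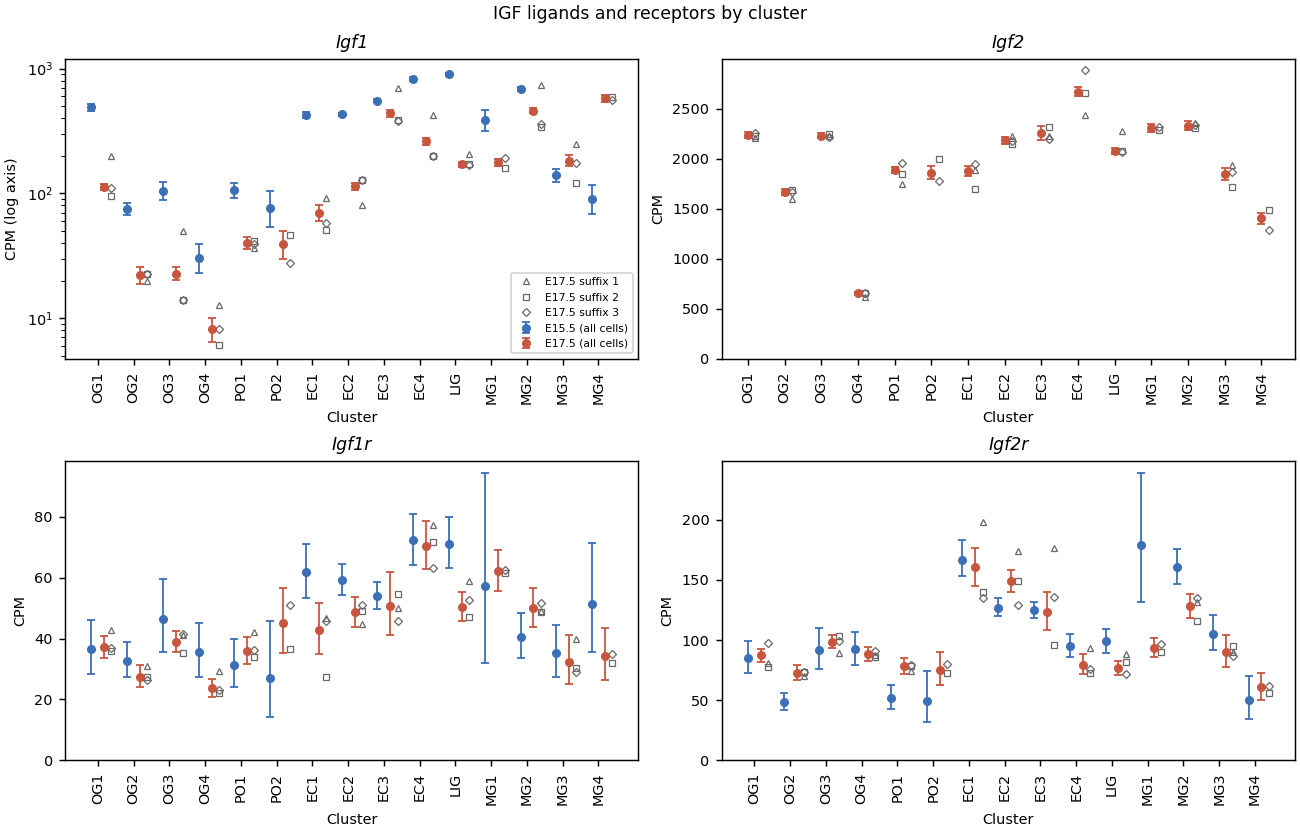
CPM of the ligands and receptors by cluster (*Igf1* on a log axis, the others on linear axes from 0); filled circles are all cells of a library with exact Poisson 95% intervals, and open symbols are E17.5 barcode suffixes with at least 20 cells. *Igf2* is shown for E17.5 only. OG4 is lowest for both ligands, *Igf1* in MG4 moves from 90.3 to 579 CPM, and *Igf1r* is highest in EC4 in both libraries.

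*Igf1r*, which encodes the signaling receptor, was lower in osteogenic cells, at 0.602 and 0.647 times the level of the other labelled cells in the earlier and the later library. It ranged from 26.9 CPM (14.3 to 45.9) in PO2 to 72.3 CPM (64.3 to 81.0) in EC4 at E15.5, and from 23.6 CPM (20.8 to 26.8) in OG4 to 70.6 CPM (63.0 to 78.8) in EC4 at E17.5. EC4 was first in both libraries, but no cluster was apart from its neighbour in the order in either one. The receptor was sparse: the thinned share of cells with a UMI was 19.1% and 18.3% in EC4 in the earlier and the later library, and 10.5% and 6.52% in OG4 (42.4% and 51.6% of all EC4 cells before thinning, and 25.3% and 34.5% of OG4). Cells with macrophage markers, described below, had 18.5 and 22.9 CPM of *Igf1r* and thinned shares of 5.33% and 5.61%. The CPM intervals of PO2 at E15.5 and of OG2, OG4 and MG3 at E17.5 overlapped theirs, although each of these values was higher.

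*Igf2r*, the clearance receptor, was high in EC1, EC2 and MG2 in both libraries. The E15.5 levels were led by MG1 at 179 CPM (132 to 239), with 167 in EC1 and 161 in MG2, and lowest in OG2 at 48.5 CPM (42.0 to 55.7). EC1 led at E17.5 with 161 CPM (145 to 177), then 149 in EC2 and 128 in MG2, and lowest in MG4 at 60.6 CPM (50 to 72.7). No neighbours in the E17.5 order were apart. EC4, which led for *Igf1r*, had 94.8 and 79.5 CPM of *Igf2r*, below the other labelled cells in both libraries, and EC1 was above them by ratios of 1.58 and 1.72. Osteogenic clusters together had 0.539 times the *Igf2r* level of the other cells at E15.5 and 0.807 times at E17.5.

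*Igfbp2*, a binding protein with an integrin-binding motif, marked the meningeal clusters. At E15.5 it was 816 CPM (748 to 887) in MG4, 741 (640 to 853) in MG1 and 678 (642 to 715) in MG3, which overlapped from one to the next, and 399 in MG2. The next cluster was EC4 with 216 CPM, and OG4 had 16.6. At E17.5 it was 3459 CPM (3411 to 3509) in MG1, 3288 (3207 to 3371) in MG4 and 1863 (1804 to 1923) in MG3, and MG3 was apart from the others. Compared with the rest of the labelled cells MG1 was 10.4-fold higher, MG4 7.12-fold and MG3 3.81-fold, and the median MG1 cell held 36 UMIs.

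Below MG1, MG4 and MG3 in that order, the ligament-like cluster LIG had 886 CPM of *Igfbp2* at E17.5 against 161 at E15.5, and MG2 had 620 at E17.5. Among osteogenic clusters *Igfbp2* went in both directions, from 164 to 78.3 CPM in OG2, 139 to 88.6 in PO1 and 171 to 72.9 in PO2, and from 64.5 to 136 in OG1, 20.1 to 43.6 in OG3 and 16.6 to 44.3 in OG4. Cells with macrophage markers had 13.5 and 94.3 CPM in the earlier and the later library. In CPM 6 clusters of the later one (OG2, OG3, OG4, PO1, PO2 and EC2) were not above them, and by the thinned share only OG3 and OG4 were not. In suffix 1, which held no MG1 and 7 MG4 cells, *Igfbp2* was below both other suffixes in 12 of 12 clusters, with a median ratio of 0.461. Macrophage-marker cells had 28.5 CPM in suffix 1, 124 in suffix 2 and 92.8 in suffix 3, and the part that RNA from other cells has in these levels was not tested.

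*Igfbp3*, the main carrier of IGFs in serum, marked EC4, the layer between bone and hypodermis, and LIG. At E15.5 it was 478 CPM (457 to 499) in EC4 and 374 (356 to 394) in LIG, and at most 76.3 in each other cluster. At E17.5 it was 3198 CPM (3146 to 3250) in EC4, 911 (892 to 931) in LIG and 408 (380 to 437) in EC3, each apart from the next. The ratio of EC4 to the rest of the labelled cells was 6.59 in the first library and 19.2 in the second, where the suffixes gave 2824 to 3761 CPM. The median EC4 cell held 3 and 29 UMIs, and the thinned shares were 63.5% and 87.8% (85.1% and 96.2% before thinning).

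*Igfbp3* was low in the osteogenic clusters, which ran from 3.87 CPM in OG4 to 72.3 in OG1 at E15.5, and from 38.1 to 47.3 at E17.5. EC2 and MG2 had 181 and 180 CPM at E17.5. Macrophage-marker cells had 7.85 and 49.4 CPM. In CPM all 6 osteogenic clusters, MG1 and MG4 were not above those cells at E17.5, and only OG4 was not at E15.5. By the thinned share only MG4 at E17.5, with 8.31% against 9.11%, and OG4 at E15.5 were not above them.

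*Igfbp4*, which inhibits IGF action until the protease PAPP-A cleaves it, was broad across the mesenchyme and lower in the pooled osteogenic clusters, least so in OG1. EC4 was highest in both libraries, with 1958 CPM (1915 to 2001) and 1765 (1726 to 1804). LIG and MG2 followed at E15.5 with 1727 and 1626 CPM, and EC3 and LIG at E17.5 with 1272 and 1218. OG4 was lowest, with 118 CPM (103 to 135) and 176 (168 to 184). The order within the osteogenic clusters was OG1 at 831 CPM, OG3 at 591, PO1 at 292, OG2 at 251, PO2 at 180 and OG4 at 118 at E15.5, each apart from the next. At E17.5 OG2 had 458 CPM and OG3 359, and OG1, with 702, was above the ectocranial EC1 with 607. Macrophage-marker cells had 437 and 597 CPM and a thinned share of 63.3% and 77.5%, above several osteogenic clusters, so the gene was not low in cells outside the labels.

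*Igfbp5*, which binds extracellular matrix, was high in the fibrous layers on both sides of the bone. At E15.5 it was 1493 CPM (1455 to 1531) in LIG, 1430 in EC4, 1373 in MG2 and 1209 in MG3. At E17.5 it was 1684 CPM (1646 to 1722) in EC4, 1270 in MG3, 1052 in EC3, 969 in EC2, 799 in MG2 and 596 in LIG. No neighbours in this order were apart once the suffixes were counted, as EC4 ranged from 1371 to 2345 CPM and LIG from 563 to 1388. OG4 was lowest, with 87.9 and 39.7 CPM, although at E15.5 it was not apart from PO1 with 115. OG3 stood above the other osteogenic clusters at E17.5 with 300 CPM, OG1 having 139, and at E15.5 had 390 beside 313 in OG1.

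The meningeal clusters split for *Igfbp5* at E17.5. MG1 and MG4 had 98.4 CPM (90.3 to 107) and 174 CPM (156 to 194), and MG2 and MG3 had 799 and 1270. These are the same clusters in which *Igfbp2* was highest: MG1, first for *Igfbp2*, was at 0.224 times the *Igfbp5* level of the other labelled cells, and MG3 was high for both. *Igfbp2* (chromosome 1 from 72824503 to 72852474, plus strand) and *Igfbp5* (chromosome 1 from 72857932 to 72874884, minus strand, GRCm38) lie end to end with 5457 bases between them. Over the 15 clusters their levels had r of 0.38 and 0.33, a description across clusters that share a library.

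*Igfbp6*, which binds IGF2 in preference to IGF1, marked the hypodermal clusters. EC2 held 511 CPM (496 to 526) at E15.5, with 335 (314 to 356) in EC1 and 260 (250 to 269) in EC3, each apart. At E17.5 it was 954 CPM (932 to 975) in EC2, 522 (491 to 555) in EC3, 287 (266 to 308) in EC1 and 271 (249 to 295) in MG3. EC1 had 457 CPM in suffix 1 and 178 over suffixes 2 and 3, where MG3 had 265, so their order turns on suffix 1. EC2 exceeded the rest of the labelled cells by ratios of 4.13 and 20, the latter being 9.01 in suffix 1, 26.8 and 25.9 in suffixes 2 and 3 and 9.03 by the thinned share. Its thinned shares were 70.6% and 88.4% (92.5% and 99.3% before thinning). EC1 was uneven at E17.5, where the 10% of cells with most *Igfbp6* held 66.6% of its UMIs and the median cell held 0.

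In osteogenic clusters *Igfbp6* ran from 12.2 to 23.9 CPM at E15.5 and from 12.4 to 17.3 at E17.5. Macrophage-marker cells had 17.6 and 18.1 CPM, and none of the 6 osteogenic clusters had a CPM interval wholly above theirs in either library. At E15.5 OG1, OG2, OG3 and PO1 had higher values, at 23.9, 23.2, 19.3 and 19.1 CPM, with overlapping intervals. At E17.5 none was above them in the thinned share either. At E15.5 the thinned share, compared by value alone, was above theirs in 4 of the 6, such as 5.96% in OG1 against 3.5%. LIG and MG1 were also not above them at E17.5. Suffix 1 had more *Igfbp6* than both others in 11 of 12 clusters, with 33.7 CPM in OG1 against 10.1 and 10.5, and 276 in EC4 against 56.3 and 55.6, and its median ratio to the others was 2.38 over 12 clusters. Macrophage-marker cells of suffix 1 had 28.5 CPM against 16.4 and 15.7, and the part of RNA from other cells in these low levels was not tested.

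*Igfbp7*, a related protein that binds IGFs weakly and is made by blood vessels, was led by meningeal cells in the earlier library and by EC4 in the later one. MG3 had 147 CPM (131 to 165) at E15.5, followed by 104 in MG2 and 92.1 in EC4, while OG4 had 8.84 (5.05 to 14.4). EC4 had 409 CPM (391 to 428) at E17.5, ahead of 223 in MG3 and 200 in MG2, and EC2 and OG4 were lowest with 33.1 and 33.9. OG1, OG3 and PO1 had 138, 137 and 135 CPM, similar to MG1 with 141. Of its exonic bases, 85 or 7.03% overlap *Polr2b* on the opposite strand in the annotation of both libraries.

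**Figure D3:**
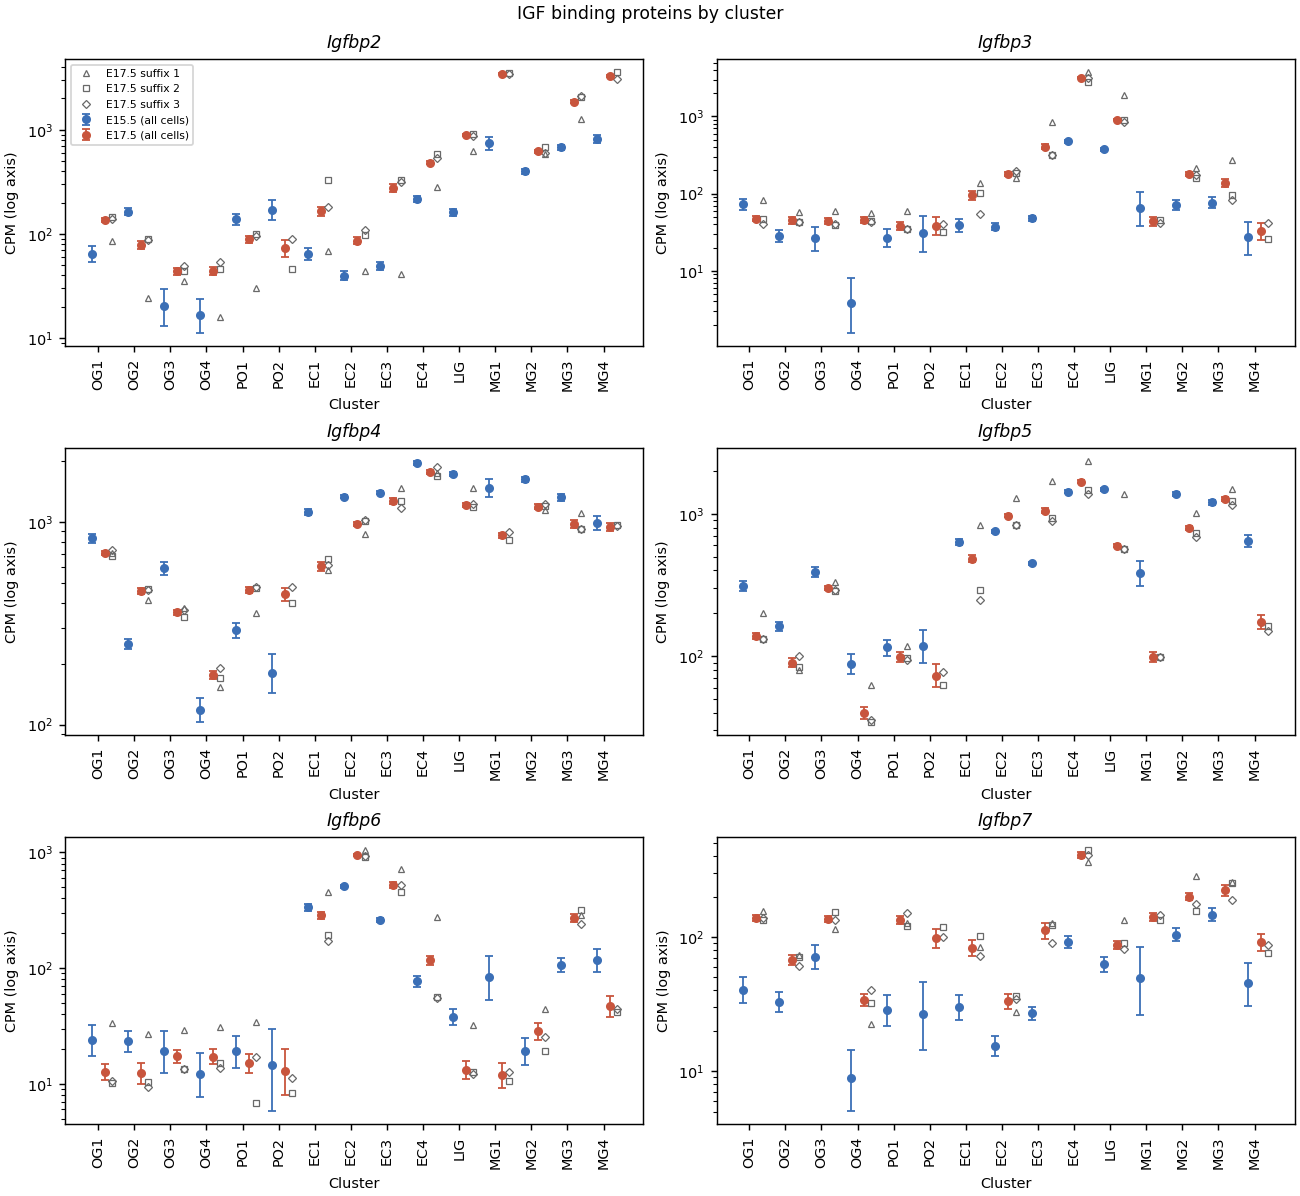
CPM on log axes of the 6 binding proteins by cluster; filled circles are all cells of a library with exact Poisson 95% intervals, and open symbols are E17.5 barcode suffixes with at least 20 cells. *Igfbp3* peaks in EC4 with 478 and 3198 CPM and *Igfbp6* in EC2 with 511 and 954, *Igfbp2* in suffix 1 lies below the other suffixes, and *Igfbp6* in suffix 1 lies above them in the osteogenic clusters.

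Read by cluster, EC4 led most often. At E17.5 it was the highest of the 15 clusters for *Igf2*, *Igf1r*, *Igfbp3*, *Igfbp4*, *Igfbp5* and *Igfbp7*, and at E15.5 for *Igf1r*, *Igfbp3* and *Igfbp4*. EC4 was not apart from the next cluster for *Igf1r* in either library, or for *Igfbp5* at E17.5. OG4 was lowest at E15.5 for each member except *Igf1r* and *Igf2r*, and at E17.5 for *Igf1*, *Igf2*, *Igf1r*, *Igfbp4* and *Igfbp5*. It was apart from the next cluster at E15.5 only for *Igf1*, *Igfbp3* and *Igfbp4*, and at E17.5 for those it led from below except *Igf1r*. OG4 cells had median depths of 7351.5 and 19349 UMIs, below and above the medians of all labelled cells. The share of all genes that are highest in EC4 or lowest in OG4 was not counted, so these counts have no background beside them.

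Between the libraries, the binding proteins did not move together. Of the 9 members compared, 3 were at least 2-fold higher at E17.5 over all labelled cells, *Igfbp2* at 520 against 146 CPM, a ratio of 3.56, *Igfbp3* at 313 against 107, a ratio of 2.94, and *Igfbp7* at 120 against 44.9, a ratio of 2.68. Of all genes tested, 4.88% were that much higher. Only *Igf1* was at least 2-fold lower, at 125 against 459 CPM, a ratio of 0.273, as were 9.88% of all genes, and with each cluster weighted equally it was no longer past 2-fold. *Igfbp4*, *Igfbp5* and *Igfbp6* had ratios of 0.610, 0.587 and 0.636, and *Igf1r* and *Igf2r* 0.793 and 0.866. The median log2 ratio was -0.33 over the 9 members and 0.01 over all genes tested.

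Cluster makeup differed between the libraries, so the ratios were also taken within each cluster. *Igfbp7* was higher at E17.5 in 15 of 15 clusters, by ratios from 1.39 in LIG to 4.74 in PO1, and *Igfbp2* in 12 clusters and lower in OG2, PO1 and PO2. At least 2-fold higher levels in 10 or more clusters were seen for *Igfbp2* and *Igfbp7*, with 11 clusters each, and for 2.77% of all genes. *Igf1* was at least 2-fold lower in 10 clusters, as were 4.63% of all genes in 10 or more. These counts differ by suffix: among the 12 clusters with at least 20 cells in every suffix, *Igfbp2* was at least 2-fold above E15.5 in 1 cluster by suffix 1 and in 9 by each of suffixes 2 and 3. By suffixes 1, 2 and 3 in turn, *Igfbp7* was that much higher in 9, 9 and 7 of the 12, and *Igf1* at least 2-fold lower in 8, 10 and 9. *Igfbp5* was lower in 10 clusters and higher in 3, with the highest ratio, 2.35, in EC3 and the lowest, 0.258, in MG1. By suffixes 1, 2 and 3 in turn it was at least 2-fold lower in 1, 4 and 4 of the 12, and that much higher in 1, 1 and 0. In EC1 it was 830 CPM in suffix 1, above the 635 of E15.5, and 290 and 247 in the others. *Igf1r* overlapped between the libraries in 11 clusters and *Igf2r* in 9.

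Cells outside the labelled subset moved the same way for some members. In macrophage-marker cells the E17.5 level was 9.54 times the E15.5 level for *Igfbp7*, 6.99 times for *Igfbp2* and 6.29 times for *Igfbp3*, and 1.37 times for *Igf1*, which was lower in most labelled clusters. *Igf1* was also lower in some other unlabelled cells, at 0.513 times in endothelial-marker and 0.613 in chondrocyte-marker cells. In mast cell-marker cells it was 0.132 times, from only 2 UMIs in 26 cells at E17.5. It was 1.19 times in pericyte-marker and 0.965 in osteoclast-marker cells. Whether free RNA has a part in these differences was not tested.

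The E17.5 suffixes also differed. Suffixes 2 and 3 were close, with a median fold between them of at most 1.16 for each member over the 12 clusters with at least 20 cells in every suffix. Suffix 1 was above both of the others in 9 of 12 clusters for *Igf1* (median ratio 1.71), in 11 for *Igfbp3* (1.62), *Igfbp5* (1.55) and *Igfbp6* (2.38), and below both in 12 for *Igfbp2* (0.461). For *Igf2*, *Igf2r*, *Igfbp4* and *Igfbp7* the median ratios were between 0.963 and 1.07. *Igf1* in MG2 was 740 CPM in suffix 1, which is above the 687 CPM of E15.5, and 338 and 361 in the others. *Igfbp5* in LIG was 1388 CPM in suffix 1, near the 1493 of E15.5, and 569 and 563 in the others.

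**Figure D4:**
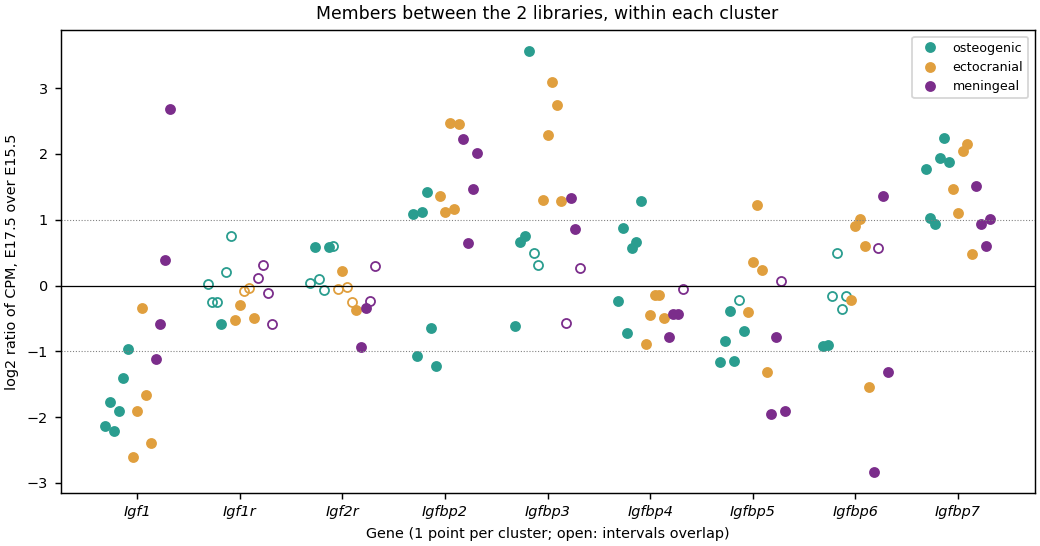
Log2 ratio of CPM at E17.5 to E15.5 (vertical axis) for 9 members (horizontal axis), with 1 point per cluster coloured by region; open points have overlapping 95% intervals, and dotted lines mark 2-fold. All 15 points of *Igfbp7* lie above 0, *Igf1* lies below 0 in 13 clusters with MG4 at 2.68, and most *Igf1r* points are open.

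Members were also read in the 2875 and 1937 unlabelled cells of the libraries that met the stated cell limits. Cells with UMIs of at least 3 markers of 1 type and of no second type were taken, which gave 316 and 661 cells with macrophage markers, 35 and 112 with endothelial markers, 78 and 139 with pericyte markers, 1439 and 309 with chondrocyte markers, 68 and 24 with osteoclast markers and 258 and 26 with mast cell markers. Macrophage-marker cells had median depths of 9163 and 10236 UMIs.

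*Igfbp7* was highest in cells with pericyte markers, at 783 CPM (726 to 844) and 1500 (1444 to 1558), where labelled clusters reached 147 and 409. Cells with endothelial markers had 128 CPM (94.1 to 169) and 905 (856 to 957). *Igfbp3* in endothelial-marker cells was 178 and 933 CPM, so EC4 was not its only high population. *Igf2r* was 231 CPM in pericyte-marker cells and 182 in chondrocyte-marker cells in the first library, with 134 and 145 in the second, against 19.5 and 34.8 in macrophage-marker cells.

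*Igf1* was 314 CPM (260 to 376) in endothelial-marker cells and then 161 (141 to 184), beside 108 and 148 in macrophage-marker cells. *Igf2* at E17.5 was 1733 CPM in chondrocyte-marker cells and 1038 in endothelial-marker cells, and 539 (524 to 555) in macrophage-marker cells. Each labelled cluster was above this last value, OG4 by the least with 651 CPM. *Igfbp2* in chondrocyte-marker cells went from 208 to 87.5 CPM, the reverse of its direction in most labelled clusters.

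**Figure D5:**
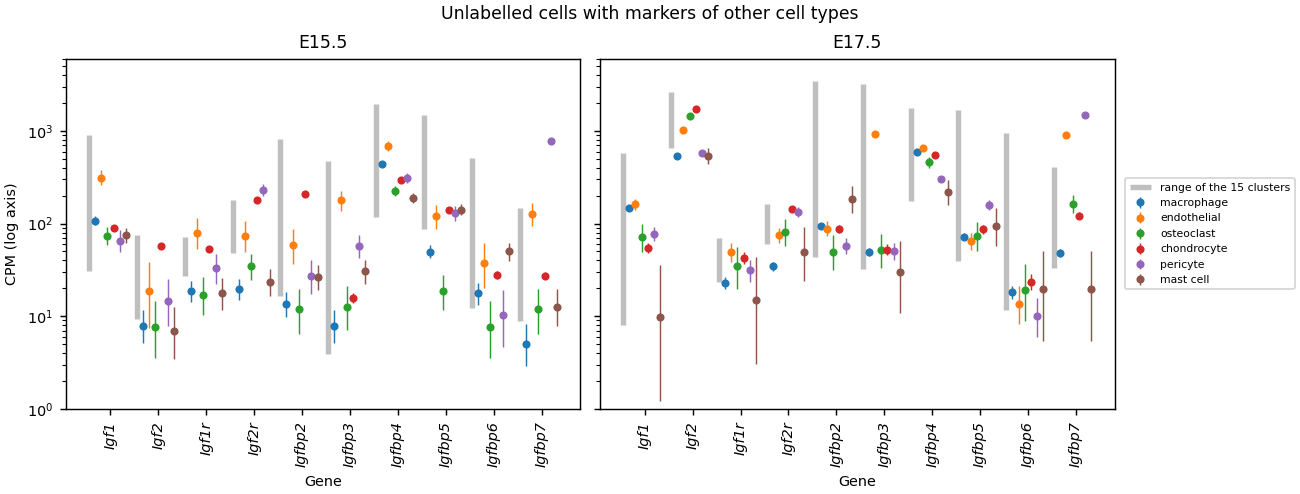
CPM on a log axis of each member in unlabelled cells with markers of 6 other cell types (points, with exact Poisson 95% intervals) beside the range over the 15 labelled clusters (grey bars), for each library. *Igfbp7* in pericyte-marker cells, at 783 and 1500 CPM, lies above the whole range of the labelled clusters, and *Igf2* cannot be compared between the panels.

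Other genes of the pathway were read from a list of 28, of which 24 passed the limit of 50 UMIs. *Igfbp1*, *Igfbpl1*, *Igfals* and *Irs4* did not, with at most 16 UMIs in a library. Of the 24 genes 5 were enriched in a cluster, against the 20.7% of all genes. *Htra1*, a secreted protease that cleaves binding proteins among other substrates, was 807 and 956 CPM in MG2, ratios of 5.54 and 3.45 to the remaining labelled cells. *Htra3*, a related protease, was 725 and 1053 CPM in MG3 and 429 and 699 in EC2, the cluster of *Igfbp6*. *Pappa2*, a protease of IGF binding proteins, was 32.2 and 26.3 CPM in EC4 and 25.9 and 33.9 in MG2, the clusters in which *Igfbp5* was enriched. *Stc2*, an inhibitor of such proteases, was 3.86 CPM (5 UMIs) and 11.0 (142 UMIs) in OG3. *Grb14*, an adaptor of the insulin receptor, was 7.57 and 8.68 CPM in EC4.

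Over all labelled cells *Stc2* and *Foxo1*, a transcription factor held out of the nucleus by IGF signaling, were at least 2-fold higher at E17.5, with ratios of 2.12 and 2.55. *Irs2*, a docking protein of the receptor, and *Plagl1*, an imprinted transcription factor, were at least 2-fold lower, with 0.335 and 0.339. *Grb10*, an imprinted inhibitor of the receptor, was 330 and 375 CPM. *Ghr*, the growth hormone receptor, was 56.3 and 36.1 CPM.

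For each member the genes with the most similar pattern were found over 30 cluster values, 15 in each library, by Pearson's r of log2(CPM + 1) centred within the library. The points share libraries and cluster labels, so r is a description. *Igf2* was most like *H19*, with r of 0.95. *H19* is an imprinted RNA gene beside *Igf2*, from 142575529 to 142578143 on chromosome 7 with 72622 bases between them, and *Igf2* itself runs from 142650766 to 142666816. *Igfbp6* was most like *Mfap5* (0.98) and *Tek* (0.97), *Igfbp4* most like *Smarca2* (0.94), *Igf1* most like *6330403K07Rik* (0.90) and *Igfbp2* most like *Ginm1* (0.87). *Mxra7* was most like both *Igfbp5* (0.87) and *Igfbp3* (0.81). *Igf2r* was most like *Cercam* (0.86), *Igf1r* most like *Fibin* (0.85) and *Igfbp7* most like *Gng8* (0.85). Among the members themselves, *Igf1* and *Igfbp4* had r of 0.86 and 0.92 in the earlier and the later library, and *Igfbp6* and *Igfbp7* had r of -0.04 and -0.05.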

How the data were processed

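Single-cell RNA-seq of mouse coronal sutures was read from 1 matrix per stage. The authors deposited raw counts of UMIs per gene and barcode. Per the labels, reads were counted with Cell Ranger on mm10, and FastQC 0.11.7, MultiQC 0.9 and Seurat 3.2.0 were used. The E15.5 header names version 3.1.0. UMIs of the E17.5 cells equalled those in the authors' table, and those of the 5335 E15.5 cells did not (table median 11513). The authors also deposited that table with the cluster of each cell. It lists 5 E15.5 cells that are not in the matrix, and 93 labelled cells outside the stated limits were kept. The limits ask for 1000 or more UMIs, 1000 or more genes, a mitochondrial share up to 7.5%, and Hbb and Hba shares up to 3% each. Possible doublets stayed in, except in 1 alternative.

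Levels, exact Poisson intervals and ratios were obtained in Python 3.11.15 (scipy 1.17.1, numpy 2.4.6, pandas 2.3.3) and plotted with matplotlib 3.10.9. Neighbouring clusters were called apart when their intervals did not overlap and, at E17.5, neither did the ranges over suffixes with at least 20 cells. Clusters were called above macrophage-marker cells in CPM when their intervals lay wholly above, and in the thinned share by value alone. Thinned shares are expected values at 3000 UMIs, and shallower cells were left out. Positions are from GENCODE on GRCm38. The named genes are the 10 members, genes of the pathway list past 2-fold, and the genes most like each member with at least 500 UMIs in each library. *Grb10*, *Ghr* and *H19* were named after their values were seen. The members and lists were chosen with earlier results of these data known. Alternatives were other measures, denominators, cells, suffixes and fold limits. The functions were tested on simulated data.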

Additional observations from a re-analysis of the deposited data

Results flagged for a closer look

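*Igf1* in MG4 was flagged because its direction differed between the libraries. Its ratio to the rest of the labelled cells was 0.194 in the E15.5 library, with 60 UMIs in 64 cells, and 4.99 in the E17.5 library, with 1099 UMIs in 202 cells. The E15.5 sample has no replicate, and the difference between the stages was not tested. At E15.5 MG4 was not above cells with macrophage markers, with 90.3 against 108 CPM. MG4 had 7 cells in suffix 1 of E17.5, and suffixes 2 and 3 gave values from 560 to 596 CPM.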

How the results depend on the processing

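The number of enriched members, 5, was 8 with a limit of 1.5-fold and 3 with a limit of 3-fold, and stayed between 4 and 6 under the other alternatives. By the thinned share of cells with a UMI it was 4, without *Igfbp5*. The number past 2-fold between the libraries, 4, was 7 with a limit of 1.5-fold, 2 with a limit of 3-fold and 2 by the thinned share of cells with a UMI, where *Igf1* and *Igfbp7* were left. With each cluster weighted equally it was 3, without *Igf1*. Suffix 1 alone gave 3, without *Igfbp2*, suffix 2 alone added *Igfbp6*, and suffix 3 alone added *Igfbp5*. Leaving out suffix 1 or MG1 were alternatives chosen after seeing the data, and gave 5 and 4. Of 176 ratios of a member's level in its highest cluster to the other cells, 113 moved by less than their interval, 63 moved by more and 0 reversed. Each cluster was picked as the highest in these same cells, so a reversal was unlikely from the start. Leaving out possible doublets removed 175 of the 350 MG2 cells at E15.5, as it counts chondrocyte markers. The counts of OG4 at E15.5, such as 7 UMIs of *Igfbp3*, limit what can be said of low levels. No paired analysis was possible because the stages share no replicate number and the E17.5 suffixes are not assigned to batches; the suffixes are given as values.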
